A study of Mus musculus with 6 samples.

Results

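The genes described here are 54 chromatin regulators whose human counterparts are linked to neurodevelopmental disorders, chosen by symbol from a fixed list and matched to the Ensembl identifiers of the count table. All 54 were found among the 33084 genes of the table, and all 54 passed the filter on low counts that left 19403 genes for testing. The libraries came from microdissected forebrains of mouse embryos at 15.5 days post coitum, 3 from wt embryos and 3 from heterozygous embryos of the Dyrk1a+/- line, which carry 1 inactivated copy of Dyrk1a. The labels name no treatment. It is not stated which part of Dyrk1a was inactivated, whether a library holds 1 embryo or several, or what sex the embryos were. Samples are called biological replicates, but nothing says how they were assigned to litters, so p-values measure the spread between these 6 libraries only.

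Chromatin regulators of this kind place, remove or read chemical marks on histones and DNA, or move nucleosomes, and so set which genes of a cell can be transcribed. Methyltransferases of the KMT2, SETD, NSD and EHMT families add methyl groups to histone lysines, KDM proteins take them off, the polycomb complexes keep developmental genes silent, and the CHD and BAF complexes use ATP to slide or evict nucleosomes. Many of these genes act in dosage-sensitive fashion in the developing brain: loss of a single copy of CHD8, ARID1B, ADNP or POGZ, among others, causes intellectual disability or autism in people. DYRK1A is itself such a gene, and its product is a kinase that slows the cell cycle of neural progenitors and that has also been found on chromatin at a palindromic promoter motif.

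Library totals ran from 18699434 to 32865708 counts. Replicate 3 of wt and replicate 2 of the heterozygotes lay far from the rest on the main axis of variation (34.3% of the variance). Noncoding structural RNAs such as 7SK made up 4.46% of the counts in the former and 4.0% in the latter, beside 2.56% to 3.01% in the remaining 4. They are called the divergent pair below. Dyrk1a was at 177, 186 and 160 CPM (counts scaled to a common effective library size) in wt and at 149, 147 and 158 CPM in heterozygotes, so all heterozygotes lay below all wt libraries. Heterozygote minus wt, as throughout, the log2 fold change came to -0.20 with an SE of 0.079 (95% interval -0.38 to -0.02; edgeR quasi-likelihood test, Benjamini-Hochberg adjusted p = 0.59). Of the regional transcription factor genes of the forebrain, Lhx2 averaged 77.4 CPM in wt and 93.3 CPM in heterozygotes, and Dlx2 17.6 and 18.0 CPM, while 8 hindbrain and spinal cord genes summed to at most 1.11 CPM in any library, with Hoxb2 and Hoxb5 at 0.

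In wt forebrain Chd3 had the highest level of the 54 transcripts, and the NuRD helicase genes Chd3 and Chd4 led the order over merged exons. Because the genes differ in length, levels between genes are given as CPM per kb of merged exons. Chd3 stood at 81.2 ± 7.66 and Chd4 at 68.6 ± 5.17 CPM per kb (SD, n = 3), the ATPases of the nucleosome remodelling and deacetylase complex. Next came the H3K36 methyltransferase Nsd1 at 44.9 ± 0.478, the H3K9 methyltransferase Ehmt2 (G9a) at 43.2 ± 2.19, Nsd2 at 40.6 ± 2.77 and the demethylase Kdm4a at 38.8 ± 1.95 CPM per kb. These 4 form a plateau in which each overlapped its neighbour in the order, and the step down to Ehmt1, at 28.5 ± 0.449 CPM per kb, was clear of the spread. The order depends on the length used. Over the longest annotated transcript Nsd2, at 87.7, lay above Chd4, at 82.1, and Ezh2, at 60.2, above Ehmt2, at 59.0, and Kdm4a, at 48.1 CPM per kb, while Chd3 stayed first at 94.4.

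**Figure D1:**
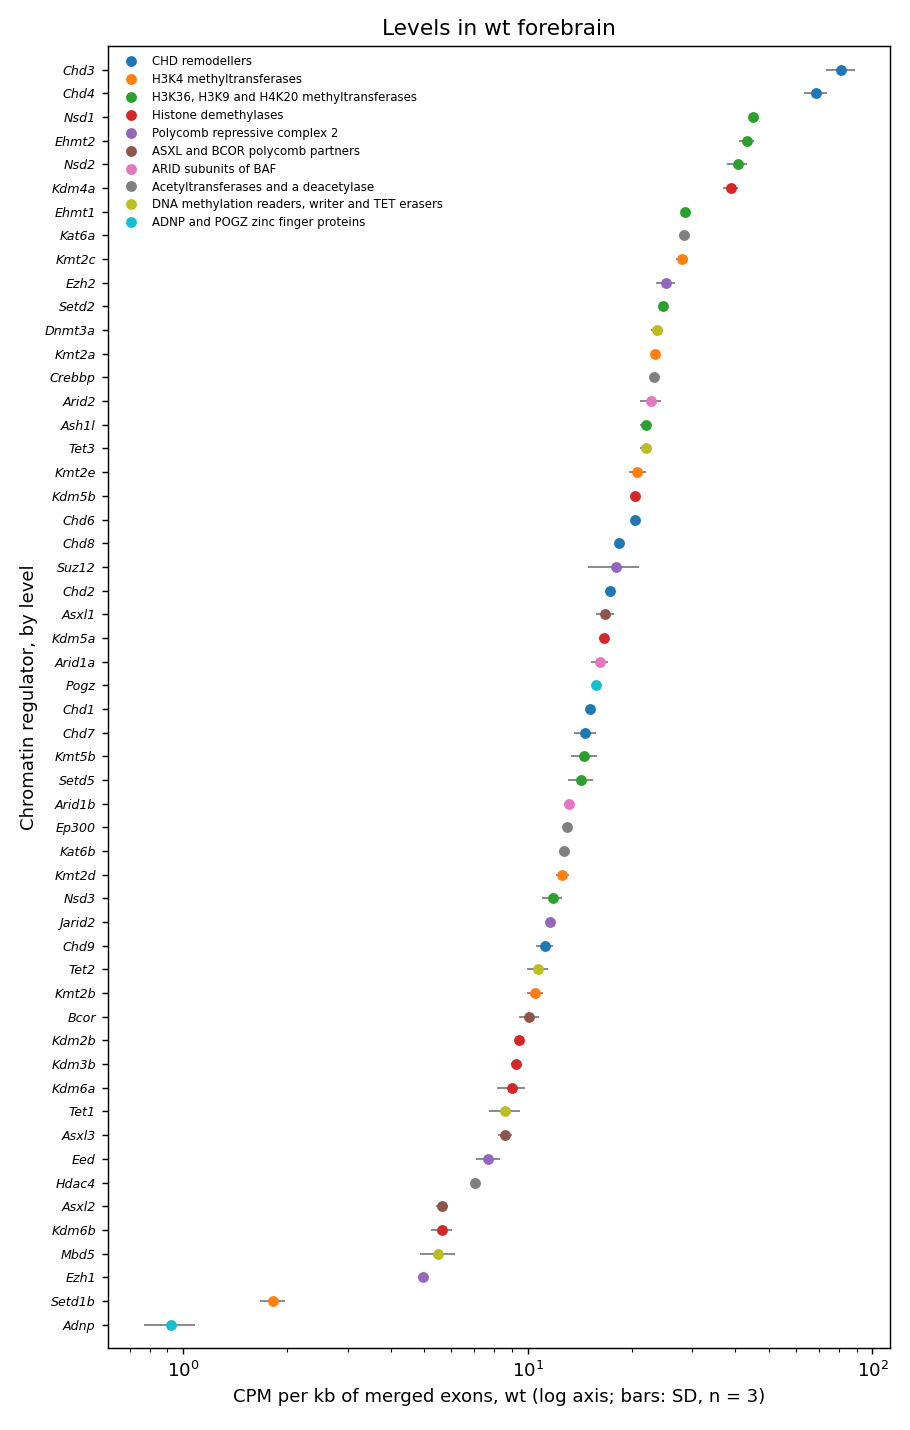
Level of each of the 54 chromatin regulators in wt forebrain, in CPM per kb of merged exons on a log axis, with points coloured by role and bars giving the SD over 3 libraries. Chd3 and Chd4 lie at the top at 81.2 and 68.6, most genes crowd in the middle, and Setd1b and Adnp lie at the bottom at 1.82 and 0.925.

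The median member stood at 15.5 CPM per kb, against 4.41 for all tested genes, and 52 of the 54 were above that second value. The 2 below it were Setd1b, an H3K4 methyltransferase, at 1.82 ± 0.149, and Adnp, a homeodomain zinc finger protein of the ChAHP complex, at 0.925 ± 0.155 CPM per kb. From Chd3 to Adnp the levels spanned 87.8-fold, a span that rests on the Adnp level, which is uncertain as described below. Of the 53 adjacent pairs in the order, 42 had wt ranges that overlapped, so most neighbours cannot be ranked against each other. Within the KMT2 family Kmt2c (28.0) and Kmt2a (23.4) were above Kmt2e (20.8), Kmt2d (12.6) and Kmt2b (10.5 CPM per kb). Over the longest transcript Kmt2e, at 29.8, lay above Kmt2a, at 23.6 CPM per kb. Of the polycomb methyltransferases Ezh2 stood at 25.1 ± 1.62 and its paralogue Ezh1 at 4.95 ± 0.163 CPM per kb, with no overlap; Ezh2 is the form of dividing progenitors and Ezh1 that of postmitotic cells. Dnmt3a, the de novo DNA methyltransferase, was at 23.7 and Tet3 at 22.0 CPM per kb, above Tet2 (10.7) and Tet1 (8.61), the other dioxygenases that oxidise methylcytosine.

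The Adnp level is uncertain. Its exons share 4393 bases with Gm20716, a gene model on the same strand, and reads that fall on 2 genes can go uncounted, so its 718 counts over all libraries may be an undercount. In all, 22 members share exon bases with another counted gene, and in 10 of them that gene had at least 5% of the member's own counts: Chd2, Kmt2e, Nsd2, Ash1l, Ehmt1, Kdm2b, Kdm5a, Eed, Asxl2 and Mbd5. The library kit keeps strand, but how strand was set in counting is not stated, so reads of opposite-strand neighbours such as Srpk2 for Kmt2e and Orc4 for Mbd5 may be mixed in.

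Between the genotypes, none of the 54 chromatin regulators passed the test, and their differences were small and mostly in 1 direction. Over all genes edgeR called 2 of 19403 (0.0103%) at an adjusted p under 0.05, 1 of them higher (0.00515%), and 0 of the 54 members; the lowest adjusted p of a member was 0.502. DESeq2 also called 0 members. At an unadjusted p under 0.05 there were 4 members, all higher in heterozygotes: Chd7, Ezh2, Chd1 and Kdm4a. That is 7.41% of the members, beside 7.88% of all tested genes in either direction and 3.27% in the higher direction. Counted by sign alone, 48 members were higher and 6 lower in heterozygotes, 88.9% higher beside 51.2% of all tested genes. The median log2 fold change was 0.074 for the members and 0.005 for all tested genes. In bulk forebrain, fewer cells of a type and less RNA per cell cannot be told apart. The 6 lower members were Dnmt3a, Adnp, Ezh1, Asxl3, Mbd5 and Nsd1, with log2 fold changes of -0.08 to -0.04.

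**Figure D2:**
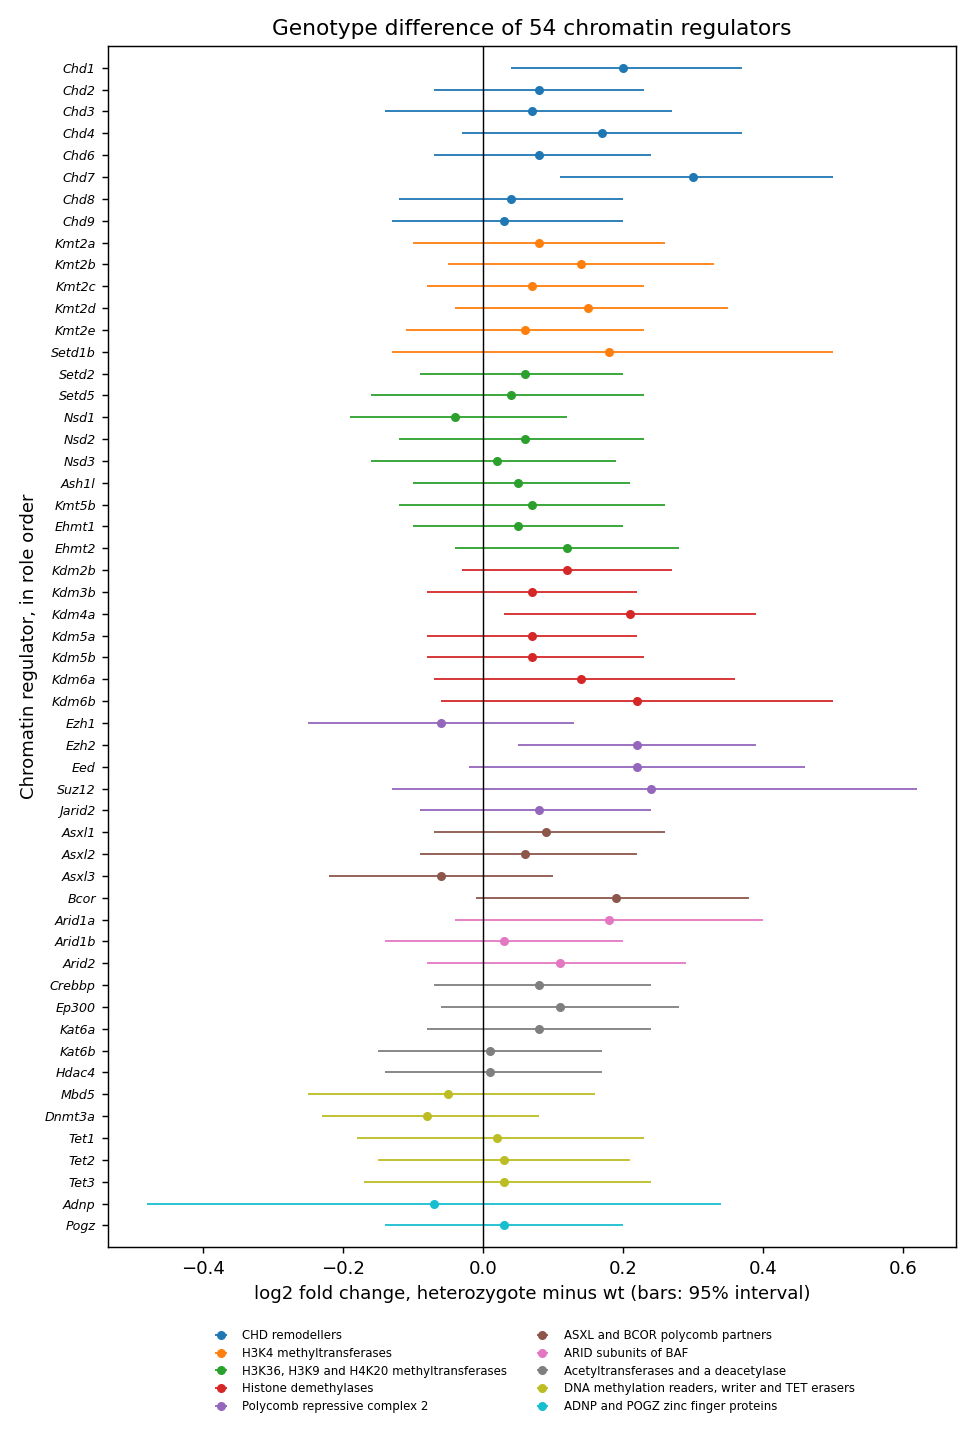
Log2 fold change, heterozygote minus wt, of each chromatin regulator in role order, with points coloured by role and bars giving the 95% interval of edgeR's quasi-likelihood fit on 3 against 3 libraries. Most points lie just right of 0, the intervals of Chd7, Ezh2, Chd1 and Kdm4a lie wholly above 0, and those of Suz12 and Adnp are the widest.

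How large a difference could have been missed is set by the precision, which was high for these genes. The members held 718 to 116746 counts over all libraries with a median of 32504, and their merged exons were 3828 to 23148 bases long with a median of 13663, against 3737 bases for all tested genes. The median SE of the log2 fold change was 0.074, against 0.136 for all tested genes. The 95% interval lay within a 1.5-fold change either way in 53 of 54 members, and within a 1.2-fold change in 34. The exception at 1.5-fold was Suz12, whose interval ran from -0.13 to 0.62.

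All 8 CHD remodellers had higher means in heterozygotes, with a median log2 fold change of 0.083 and 2 at an unadjusted p under 0.05. Chd7, the helicase mutated in CHARGE syndrome and needed in neural progenitors, was at 186, 206 and 215 CPM in wt and 230, 252 and 266 CPM in heterozygotes. The groups did not overlap. Its log2 fold change of 0.30 (SE 0.086, 95% interval 0.11 to 0.50; edgeR adjusted p = 0.502) was the largest of the 54. Chd7 lies on GRCm38 chromosome 4, 8690406 to 8867659. Chd1, a remodeller of actively transcribed chromatin (chromosome 17, 15704967 to 15772610), was at 134, 133 and 131 CPM in wt and 155, 143 and 160 CPM in heterozygotes. The wt values lay within a few CPM of each other and below every heterozygote, for a log2 fold change of 0.20 (SE 0.072; edgeR adjusted p = 0.554). Chd4 was at 516, 538 and 596 against 563, 644 and 649 CPM (0.17, SE 0.088), with overlap between its groups. Chd8, the CHD gene most often hit in autism, was at 297, 306 and 310 against 298, 328 and 315 CPM, a log2 fold change of 0.04 with an interval of -0.12 to 0.20. Chd3, the most abundant member, was at 644, 653 and 760 against 674, 772 and 710 CPM (0.07, SE 0.09), with overlap. Chd2, Chd6 and Chd9 had log2 fold changes from 0.03 to 0.08.

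The 6 genes of the H3K4 methyltransferase group were all higher by 0.06 to 0.18, with a median of 0.112, and 0 reached an unadjusted p under 0.05 (edgeR). Kmt2d, the Kabuki syndrome gene, was at 240, 249 and 262 CPM in wt and 249, 292 and 294 CPM in heterozygotes (log2 fold change 0.15, SE 0.086; edgeR adjusted p = 0.723). Kmt2c, whose product acts at enhancers as that of Kmt2d does, was at 575, 586 and 542 against 601, 594 and 597 CPM (0.07, SE 0.067), and did not overlap between groups. Setd1b, the lowest of the group, had the largest difference, 0.18, with the largest SE, 0.141.

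Among 9 methyltransferases of H3K36, H3K9 and H4K20, 8 were higher and Nsd1 lower, with a median of 0.054 and 0 at an unadjusted p under 0.05 (edgeR). Ehmt2 was at 226, 236 and 250 CPM in wt and 251, 266 and 256 CPM in heterozygotes (0.12, SE 0.072; edgeR adjusted p = 0.733), so the highest wt library lay just under the lowest heterozygote. Nsd1, the Sotos syndrome gene, was at 781, 794 and 779 against 750, 802 and 743 CPM (-0.04, 95% interval -0.19 to 0.12). Nsd3 was among the 3 members nearest to 0, at 0.02, with 202, 202 and 179 against 195, 192 and 204 CPM. Setd2, Setd5, Nsd2, Ash1l, Kmt5b and Ehmt1 lay between 0.04 and 0.07.

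All 7 histone demethylases were higher, with a median of 0.125 and 1 at an unadjusted p under 0.05. Kdm4a, which demethylates H3K9 and H3K36 (chromosome 4, 118136957 to 118180043), was at 229, 211 and 232 CPM in wt and 245, 279 and 255 CPM in heterozygotes. The groups did not overlap, for a log2 fold change of 0.21 (SE 0.079, 95% interval 0.03 to 0.39; edgeR adjusted p = 0.58). Kdm2b, Kdm5a and Kdm5b also had every heterozygote above every wt library, with log2 fold changes of 0.12, 0.07 and 0.07. The H3K27 demethylases Kdm6a and Kdm6b had 0.14 and 0.22 with SEs of 0.096 and 0.122, and their groups overlapped. Kdm3b, an H3K9 demethylase, had 0.07.

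The 3 core subunits of polycomb repressive complex 2 had log2 fold changes of similar size, with SEs from 0.074 to 0.165. Ezh2, the methyltransferase that places H3K27 trimethylation (chromosome 6, 47530139 to 47595341), was at 174, 175 and 155 CPM in wt and 194, 192 and 200 CPM in heterozygotes, without overlap. This was a log2 fold change of 0.22 (SE 0.074, 95% interval 0.05 to 0.39; edgeR adjusted p = 0.53). Eed, which binds the finished mark, was at 28.0, 32.1 and 28.2 against 36.4, 29.8 and 36.7 CPM (0.22, SE 0.107; edgeR adjusted p = 0.679). Suz12, the scaffold of the complex, was at 93.7, 101 and 72.0 against 111, 81.4 and 123 CPM (0.24, SE 0.165; edgeR adjusted p = 0.767). For Eed and Suz12 the groups overlapped, and the heterozygote of the divergent pair lay among the wt libraries. Jarid2, an accessory subunit, had 0.08, and Ezh1 was lower, at 37.4, 37.6 and 35.4 against 35.6, 37.6 and 32.7 CPM (-0.06, 95% interval -0.25 to 0.13). The difference between Ezh2 and Ezh1 in response was not tested.

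**Figure D3:**
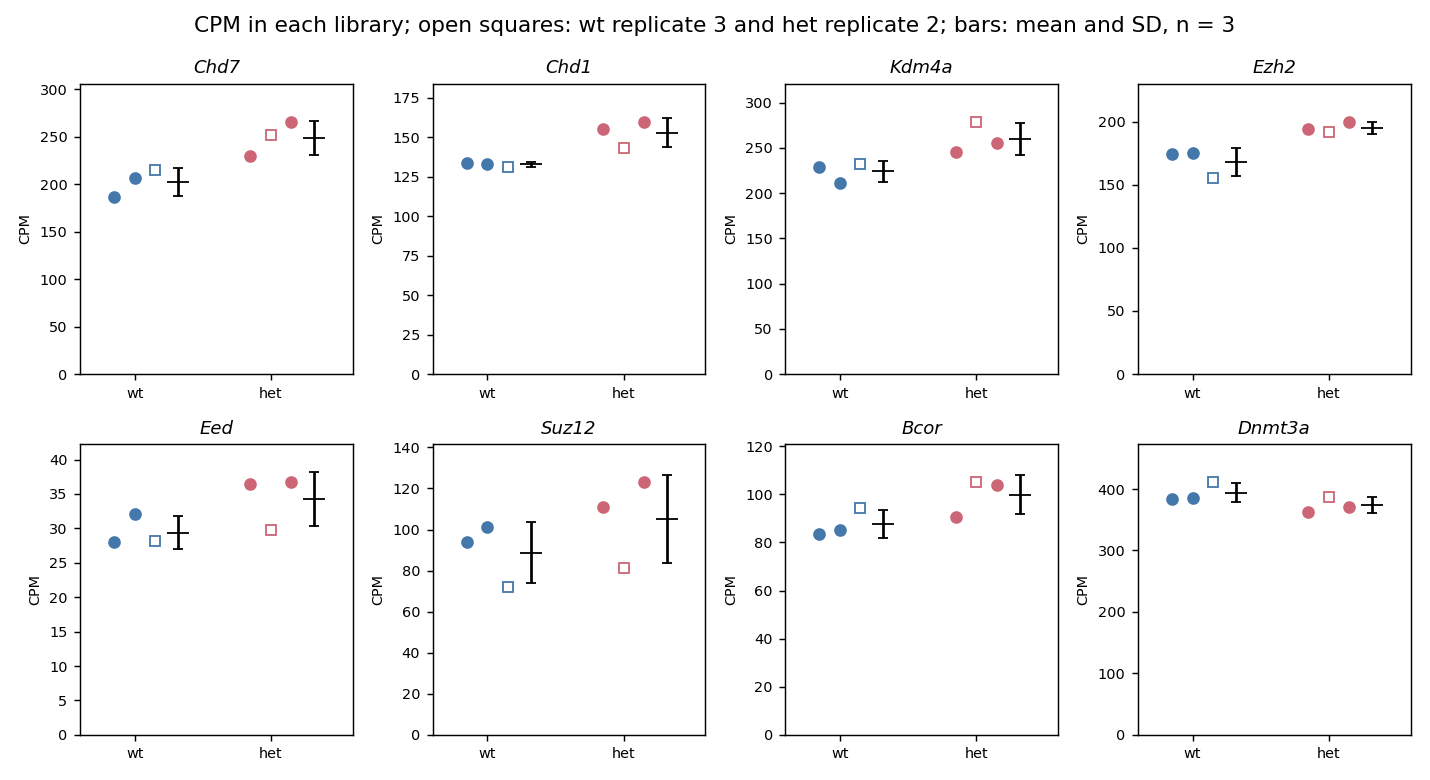
CPM in each library for 8 chromatin regulators, on axes that start at 0, with wt in blue, heterozygotes in red, open squares for wt replicate 3 and heterozygote replicate 2, and black bars for the mean and SD (n = 3). Chd7, Chd1, Kdm4a and Ezh2 show every heterozygote above every wt library, while the open squares of Suz12, at 72.0 and 81.4, lie below all filled points of either genotype.

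Promoter windows of 300 bases, from 250 before to 50 after the transcription start, were found for 37 of the 54 members in RefSeq on GRCm38.p6. They were searched on both strands for 4 motifs: the palindrome at which DYRK1A has been found on chromatin; TTTCCCGC and TTTGGCGC, forms of the E2F site of S phase genes; and TTTGAA, the core of the cell cycle homology region of G2 and M genes. None of these motifs overlaps another in the stretches below. The stretches shown are those of the PRC2 core, whose subunits had differences of like size, and of Adnp, which alone of the 37 holds the palindrome; capitals mark the motif named, other matches (TTTGAA on the other strand in Suz12 and Eed) are left in lower case, and each is written on the strand of the gene.

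Ezh2, chr6:47595009-47595038, minus strand, TTTGGCGC: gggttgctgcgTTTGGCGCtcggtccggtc

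Suz12, chr11:79992861-79992920, plus strand, TTTCCCGC: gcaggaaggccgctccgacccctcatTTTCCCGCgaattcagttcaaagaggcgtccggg

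Eed, chr7:89981141-89981200, minus strand, TTTGAA: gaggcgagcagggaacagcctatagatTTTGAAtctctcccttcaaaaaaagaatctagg

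Adnp, chr2:168207303-168207362, minus strand, the palindrome: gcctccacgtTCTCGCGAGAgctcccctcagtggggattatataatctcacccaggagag

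The E2F-type letters begin at position 4 of the Ezh2 transcript, counting its RefSeq start as 1, and 219 bases before that of Suz12. TTTCCCGC was in 2 of 37 member promoters (5.41%; Suz12 and Arid1a) and in 2.11% of the 12299 tested genes with a window, and TTTGGCGC in 1 (2.7%) and 1.06%. The palindrome was in 1 of 37 (2.7%) and in 1.00% of tested genes. TTTGAA was in 4 of 37 (10.8%; Asxl1, Bcor, Eed and Suz12) and in 14.6%. Over all 27025 genes with a window the shares were 1.24%, 0.585%, 0.525% and 20.2%. Member windows held a median of 23 CpG dinucleotides and 64.3% G and C, against 20 and 60.7% for tested genes. These are matches of letters, with counts of members too small to compare.

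The polycomb-associated ASXL proteins and BCOR had a median log2 fold change of 0.077, and 0 of the 4 reached an unadjusted p under 0.05 (edgeR). Bcor, a subunit of a variant polycomb repressive complex 1, was at 83.6, 85.0 and 94.1 CPM in wt and 90.5, 105 and 104 CPM in heterozygotes (0.19, SE 0.085; edgeR adjusted p = 0.647). Asxl1, of the BAP1 deubiquitinase, was at 121, 121 and 134 against 131, 135 and 135 CPM (0.09, SE 0.072), and Asxl3 was lower at 138, 137 and 126 against 130, 126 and 129 CPM (-0.06). All 4 overlapped between genotypes.

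The 3 ARID subunits of the BAF remodellers were higher by 0.03 to 0.18. Arid1a was at 177, 183 and 197 CPM in wt and 183, 221 and 227 CPM in heterozygotes (0.18, SE 0.095; edgeR adjusted p = 0.702), and heterozygote replicate 1 lay among the wt libraries. Arid2, of the PBAF form, was at 247, 260 and 226 against 261, 249 and 279 CPM (0.11, SE 0.082), with overlap. Arid1b, the most common single-gene cause of Coffin-Siris syndrome, was at 161, 166 and 172 against 158, 177 and 175 CPM, a log2 fold change of 0.03 with an interval of -0.14 to 0.20.

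Of the acetyltransferases and the deacetylase Hdac4, 5 of 5 were higher by 0.01 to 0.11. Ep300 was at 182, 186 and 187 CPM in wt and 185, 201 and 212 CPM in heterozygotes (0.11, SE 0.074; edgeR adjusted p = 0.766), and its paralogue Crebbp at 310, 318 and 314 against 322, 349 and 327 CPM (0.08, SE 0.068), without overlap. Kat6a, of the MOZ complex, was at 253, 260 and 269 against 264, 288 and 276 CPM (0.08, SE 0.07). Kat6b at 214, 219 and 206 against 206, 215 and 223 CPM and Hdac4 at 111, 112 and 112 against 109, 119 and 110 CPM were, with Nsd3, the members nearest to 0, both at 0.01. Their intervals, -0.15 to 0.17 and -0.14 to 0.17, bound a change in either direction.

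Genes of DNA methylation had the smallest median of the groups with more than 2 genes, 0.024, with 3 higher and 2 lower. Dnmt3a was at 384, 386 and 411 CPM in wt and 362, 387 and 371 CPM in heterozygotes (-0.08, SE 0.069, 95% interval -0.23 to 0.08; edgeR adjusted p = 0.838). Mbd5, a methyl-CpG-binding domain protein, had -0.05, and Tet1, Tet2 and Tet3 had 0.02, 0.03 and 0.03. Pogz, a zinc finger protein that binds heterochromatin protein 1, was at 147, 147 and 144 against 139, 150 and 159 CPM (0.03, SE 0.074), and Adnp at 4.18, 5.83 and 4.84 against 4.98, 3.90 and 5.28 CPM (-0.07, SE 0.181).

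**Figure D4:**
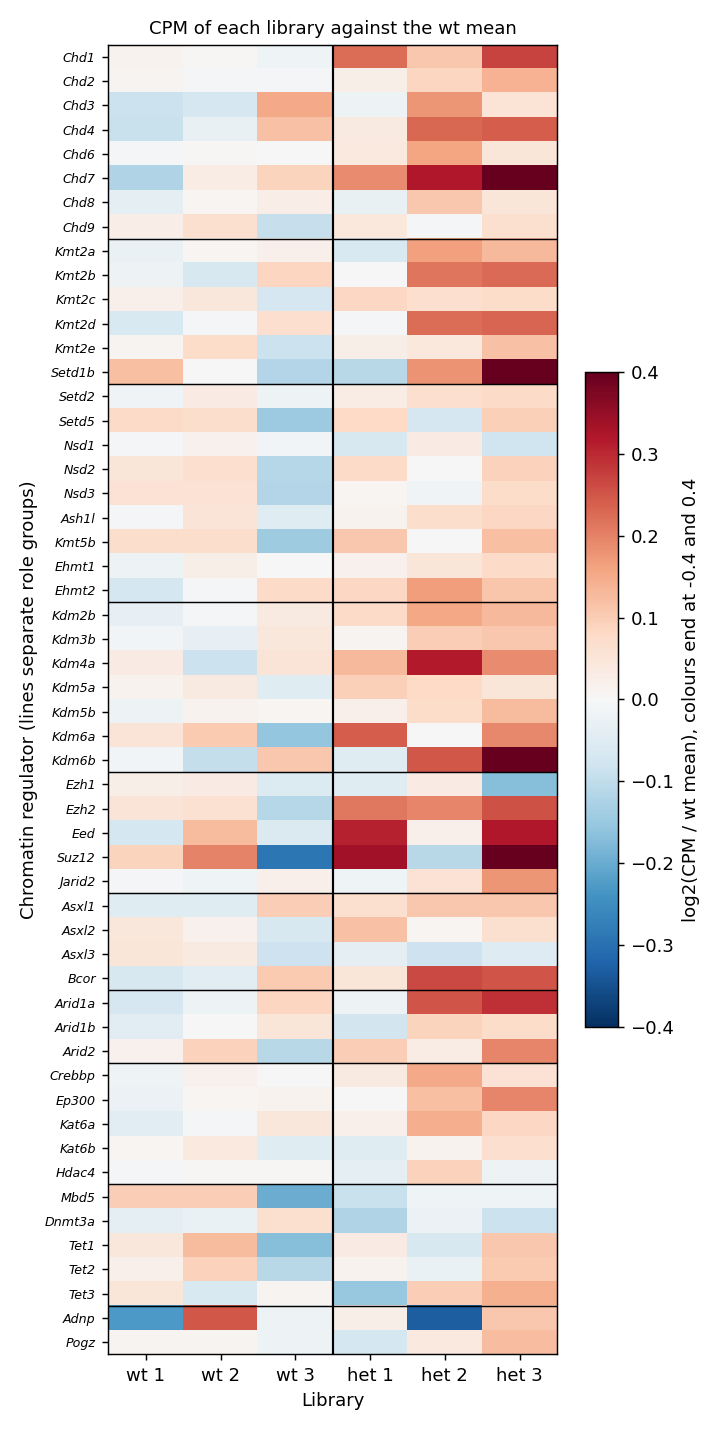
Log2 ratio of each library's CPM to the wt mean for the 54 chromatin regulators, with libraries as columns, genes as rows in role order, and red for higher and blue for lower values. Heterozygote replicates 2 and 3 are red in most rows, heterozygote replicate 1 is paler, and wt replicate 3 departs from the other wt libraries in both directions.

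By library, the median difference of the members from their wt mean was 0.021 in heterozygote replicate 1, 0.076 in replicate 2 and 0.109 in replicate 3 on the log2 scale, and 35, 42 and 48 of the 54 were above the wt mean. Over all tested genes the same medians were 0.009, 0.005 and 0.009. The 3 heterozygotes thus differed among themselves, and replicate 1 lay close to wt for many members. Without heterozygote replicate 1, 10 of 54 members were at an unadjusted p under 0.05 (edgeR), all higher, beside 7.98% of all tested genes in either direction. Without heterozygote replicate 3 there were 2 of 54, all higher, beside 4.25% in either direction. All heterozygotes lay above all wt libraries in 12 members (22.2%, beside 6.53% of all tested genes) and below them in 0 (7.49% of all tested genes). The 12 were Chd1, Chd2, Chd6, Chd7, Kmt2c, Ehmt2, Kdm2b, Kdm4a, Kdm5a, Kdm5b, Ezh2 and Crebbp.

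In both genotypes the divergent pair was higher than the other libraries in 23 of 54 members and lower in 19, beside 37.4% and 33.3% of all tested genes, and in 25 of 54 the difference of the pair was larger than that of the genotype (60.1% of all tested genes). The log2 CPM difference of the pair from the others was -0.48 for Suz12, -0.23 for Kdm6a, -0.21 for Adnp, and -0.19 for Tet1 and Eed. Chd3 was higher in the pair by 0.19, Bcor by 0.14 and Chd4 by 0.13. Within the pair, 52 members were higher in the heterozygote, and within the 4 other libraries 44 were, beside 52.6% and 50% of all tested genes. In Suz12 the heterozygotes were higher within each, by 0.18 in the pair and 0.27 in the others. In Ezh2 they were higher by 0.30 and 0.18, and in Eed by 0.08 and 0.29.

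**Figure D5:**
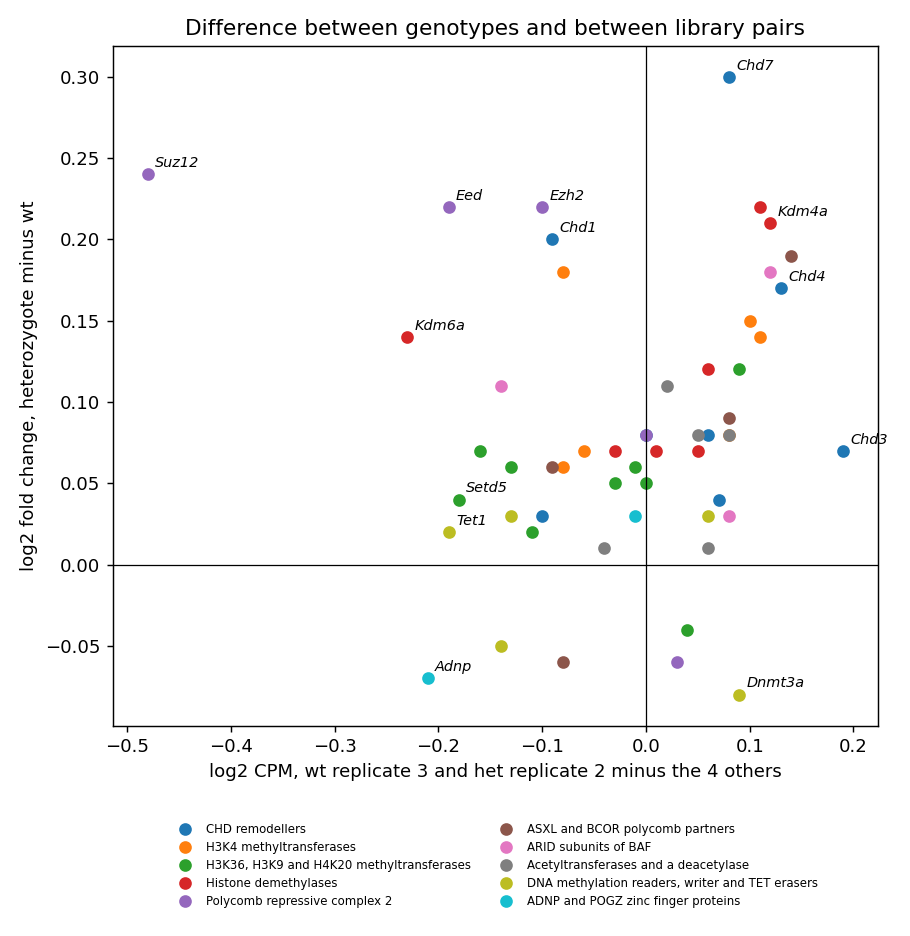
Genotype difference of each chromatin regulator, on the vertical axis as log2 fold change, against the log2 CPM difference of wt replicate 3 and heterozygote replicate 2 from the 4 other libraries, with colours for role. Suz12 lies farthest left at -0.48, Chd3 farthest right at 0.19, and most points lie above 0 on both sides.

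With a term for the pair in the edgeR fit, 14 members reached an unadjusted p under 0.05, all higher: Chd1, Chd4, Chd7, Kmt2b, Kmt2d, Ehmt2, Kdm2b, Kdm4a, Kdm6a, Ezh2, Eed, Suz12, Bcor and Arid1a. In that fit 7.43% of all tested genes were higher at that threshold. None of the 54 passed over all genes, with a lowest edgeR adjusted p of 0.117 for Chd7 and Ezh2. In an edgeR fit of the 4 other libraries alone 8 of 54 members were at an unadjusted p under 0.05, all higher. Of all tested genes 12.9% were at that threshold in either direction.

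Other genes of the same complexes were taken from lists that leave out the 54. Of 123 such partners 122 were tested (Pagr1a, with 17 counts, was not), 102 were higher and 20 lower, and the median log2 fold change was 0.076. By edgeR 0 passed over all genes, and 9 were higher and 1 lower at an unadjusted p under 0.05, beside 3.27% and 4.61% of all tested genes. PRC2 partners had a median of 0.148, and the lowest p values in it belonged to the histone chaperone Rbbp4 (0.15, SE 0.07; 267 against 297 CPM) and Aebp2 (0.15). In the list of H3K9 methylation and heterochromatin, 11 of 12 were higher, with 3 at an unadjusted p under 0.05: Suv39h1 (0.27, SE 0.07; 48.4 against 58.3 CPM) and Suv39h2 (0.37), which trimethylate H3K9, and the heterochromatin protein gene Cbx1 (0.18). Of 8 DNA methylation partners Uhrf1, which brings maintenance methyltransferase to replicated DNA, had 0.24 (SE 0.10) and Mbd4 0.29. Of 23 BAF partners 20 were higher; Actl6a, the actin-like subunit of progenitor BAF, had 0.29 (SE 0.092) and Ss18 0.22. The 1 partner lower at an unadjusted p under 0.05 was the ATPase gene Smarca2, named after its values were seen, at 195 against 172 CPM (-0.19, SE 0.074; edgeR adjusted p = 0.591). Genes of subunits known from neuronal BAF had no common direction: Dpf3 had 0.12, Ss18l1 0.02, Dpf1 0.00 and Actl6b -0.06.

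The remaining partner lists had medians of 0.049 to 0.118. In the PRC1 list 16 of 19 were higher, with Cbx2 at 0.31 (SE 0.127) and Pcgf5 at 0.36 (SE 0.165). In NuRD 10 of 12 were higher, Mbd3 with 0.16 (SE 0.093), and in COMPASS 11 of 12, Paxip1 and Cxxc1 with 0.16 each. Of the other lysine demethylases 9 of 11 were higher, Kdm3a with 0.18 (SE 0.077) and Kdm1a with 0.17. For BAP1, MOZ and MORF, and class II deacetylase partners 5 of 6, 5 of 7 and 5 of 7 were higher, and the lowest p values belonged to Ogt (0.12), Mbd6 (0.25), Brpf1 (0.16), Brd1 (0.08), Ncor1 (0.12) and Hdac9 (-0.10).

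Genes of the cell cycle and of cell types were followed in the same libraries. All 20 S phase genes and all 20 G2 and M genes listed were higher in heterozygotes, with medians of 0.286 and 0.352 and 17 and 19 at an unadjusted p under 0.05 (edgeR). Their summed CPM was 884 to 974 and 1157 to 1292 in wt against 1044 to 1195 and 1469 to 1831 in heterozygotes. Of all tested genes 51.2% were higher in heterozygotes, and 3.27% were higher at an unadjusted p under 0.05 (edgeR). All lists in this paragraph were chosen with earlier results of these data known. Intermediate progenitor genes were higher in 10 of 10 cases (448 to 484 against 519 to 604 CPM summed) and apical progenitor genes in 11 of 14 (1550 to 1741 against 1651 to 1862 CPM). Neuronal genes were lower in 15 of 18 (8261 to 8898 against 7472 to 7903 CPM), meningeal genes in 8 of 10 (535 to 626 against 464 to 501 CPM) and microglial genes in 9 of 10 (83.7 to 90.0 against 69.2 to 77.1 CPM). Oligodendrocyte precursor genes were lower in 5 of 6 (116 to 120 against 80.8 to 102 CPM), erythroid genes in 7 of 8 (750 to 949 against 582 to 743 CPM summed) and endothelial genes in 6 of 8 (280 to 325 against 277 to 313 CPM). The other erythroid gene, the embryonic globin Hbb-y, was at 6.85 against 42.3 CPM (2.62, SE 0.533; edgeR adjusted p = 0.483). Of these lists 1 gene passed over all genes, the meningeal Ptgds, which fell from 32.6 to 14.7 CPM (-1.15, SE 0.109; edgeR adjusted p = 0.0238). None of the defining genes of these cell types was at 0. The part of these lists in the values of the chromatin regulators was not tested.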

How the data were processed

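Forebrain RNA was sequenced in 3 wt and 3 heterozygote libraries. The authors deposited raw counts per Ensembl gene, 1 column per library. Per the submitters' processing notes, bcl2fastq 2.17.1.14, HISAT2, SAMtools 1.9 and HTSeq 0.9.1 were used on GRCm38; the annotation release and strand setting of the counting are not stated. The library kit was a stranded, ribosome-depleted total RNA kit, although polyA RNA is also given as the molecule. Symbols, positions and exon lengths came from GENCODE M21 for 32888 of 33084 genes.

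In R 4.3.3, edgeR 4.0.16 (filterByExpr, TMM, quasi-likelihood test, genotype only) was fitted to all 19403 tested genes, with Benjamini-Hochberg adjustment over all of them and a threshold of 0.05. Standard errors and 95% intervals come from the F statistic; counts of 3 against 3 libraries limit precision. DESeq2 1.42.0, limma 3.58.1 (voom), other filters, scalings and left-out libraries were alternatives. No library was a copy of another (chi-square per degree of freedom 4.55 to 29.7).

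Members and gene lists were chosen with earlier results of these data known. Members named are those at an unadjusted p under 0.05, the lowest p and highest level of each role group, and the 3 nearest 0; of each other list, the 2 of lowest p. Members outside that rule were named after their values were seen. Promoters are RefSeq windows on GRCm38.p6.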

Additional observations from a re-analysis of the deposited data

How the results depend on the processing

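Of the 54 members 0 were called under any alternative fit or at an adjusted p under 0.1, and 42 to 50 were higher in heterozygotes across the fits. The members' median log2 fold change ran from 0.05 to 0.099, with 0.095 after removal of the length trend, and Dyrk1a from -0.26 to -0.16. Over all genes, the number called was 2 as reported, 27 by the DESeq2 test, 4 with no low-count filter, 6 when the divergent pair was a term, 6 in the 4 other libraries alone, and 0 to 5 when 1 library was left out. The replicate block gave 0 calls over all genes, and 1 member and 6 partners at an unadjusted p under 0.05 (edgeR). The share of all tested genes at that threshold was not taken in that fit. Deviations of same-numbered libraries correlated at 0.195, -0.319 and -0.154, so not every library correlated best with its own number. The highest correlation, 0.44, was that of the divergent pair. Whether same-numbered libraries share a litter cannot be told from these values. Members at an unadjusted p under 0.05 were 14 with the pair term, 8 in the 4 others alone and 2 to 10 with 1 library left out. As reported, 1 was at an unadjusted p under 0.01 (edgeR), a threshold at which the share of all tested genes was not taken. Of the 122 partners tested, 10 were at an unadjusted p under 0.05 as reported. This number, in either direction, was 36 with the pair term, 19 in the 4 others alone and 3 to 14 with 1 library left out. With the pair term the share of all tested genes in either direction was not taken, so the 36 has no like share beside it. That share was 7.98% without heterozygote replicate 1 and 4.25% without heterozygote replicate 3, and was not taken for the other left-out libraries. Of all tested genes, 7.88% reached that threshold in either direction as reported and 12.9% in the 4 others alone (edgeR). With the pair term 7.43% of all tested genes were higher at that threshold, beside 3.27% as reported. The median wt level was 22.1 CPM per kb over the longest transcript in place of merged exons. Of the 20 members followed through every alternative, signs turned in 4, all near 0: in the 4 others alone Nsd3, Kat6b and Hdac4 were at -0.02, -0.01 and -0.02, in thinned counts Kat6b at -0.0034, without wt replicate 3 Nsd3 and Kat6b at -0.04 and -0.01, without heterozygote replicate 2 Hdac4 at -0.03, and without heterozygote replicate 3 Nsd3, Kat6b and Pogz at -0.01, -0.02 and -0.02. With 1 library left out the ranges were -0.04 to 0.04 for Nsd3, -0.02 to 0.04 for Kat6b, -0.03 to 0.04 for Hdac4 and -0.02 to 0.08 for Pogz. Over all 54, signs turned in 10 with 1 library left out; the other 6 were Adnp (-0.18 to 0.06), Tet1 (-0.06 to 0.08), Setd5 (-0.03 to 0.09), Tet2 (-0.02 to 0.07), Tet3 (-0.02 to 0.12) and Chd9 (-0.01 to 0.06). Leaving out members that share exon bases with a gene of 5% of their counts, chosen after seeing the data, as was the count of members by sign, left a median of 0.075. The causes of these shifts were not tested.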
